A study of Homo sapiens with 4 samples.

Results

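EGFR, ERBB2, ERBB3, ERBB4, MET, IGF1R, INSR, PDGFRA, DDR1 and AXL are growth factor and matrix receptors of the receptor tyrosine kinase family, and their 10 rows were taken by gene symbol from the 28277 genes of the deposited count table. All 10 symbols were present. NCI-H520, an established cell line from lung squamous cell carcinoma labelled as wild type, was sampled in 4 RNA sequencing libraries. In the Vehicle group (2 libraries) the cells received ultrapure water, and in the Hx1R8 group (2 libraries) they received 10 µM Hx1R8 for 12 h. The series concerns SOX2, a squamous lineage factor, its self-association and drug resistance, and the nature of Hx1R8 is not stated in the sources used here. Whether the libraries of a group came from separate cultures is not stated either. The p-values therefore set group differences against a spread between these libraries that may be technical.

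A receptor tyrosine kinase typically binds its ligand outside the cell, signals as a dimer, and has its kinase domain phosphorylate tyrosines on the partner chain. Adaptor proteins then dock on these sites and pass the signal to the RAS and MAPK cascade and to PI3K and AKT, which drive growth and survival. ERBB2 has no known ligand of its own and ERBB3 has a weak kinase, so both act mainly as partners of other ERBB receptors. MET binds hepatocyte growth factor, IGF1R and INSR bind insulin-like growth factors and insulin, PDGFRA binds platelet-derived growth factors, DDR1 binds collagen, and AXL binds GAS6. EGFR and MET are well-known drug targets in lung cancer, mostly in adenocarcinoma.

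The ERBB coding sequences are shown because the 4 family members differ at the catalytic loop of the kinase, which bears on the ERBB2 to ERBB3 comparison further on. Each run holds 36 bases of coding sequence in the GENCODE v29 annotation of GRCh38, with the codon at the position of the catalytic aspartate in capitals.
EGFR: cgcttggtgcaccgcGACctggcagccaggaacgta
ERBB2: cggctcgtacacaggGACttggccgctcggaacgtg
ERBB3: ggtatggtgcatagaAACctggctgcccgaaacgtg
ERBB4: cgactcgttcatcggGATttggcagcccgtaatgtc
The codon read aspartate in EGFR, ERBB2 and ERBB4 and asparagine in ERBB3, and it read aspartate in the 6 other receptors. Over the 45 pairs of the 10 coding sequences the longest identical run was 25 bases, between ERBB2 and ERBB4, and IGF1R and INSR shared at most 23 bases.

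Each library held between 17259403 and 20920857 counts, and 3 counts, taken as the floor for detection, corresponded to 0.143 to 0.174 CPM, the counts relative to the size of the library. That floor covers counting error only. Of the markers that define squamous cells, SOX2 was at 528 ± 18.7 CPM in Vehicle (SD, n = 2), TP63 at 0.431 ± 0.044 CPM, and KRT14 and DSG3 had no read in any library. The squamous genes KRT6A (19.8 ± 0.121 CPM under Vehicle and 17.5 ± 0.529 under Hx1R8) and DSC3 (6.09 ± 0.050 and 7.58 ± 0.049 CPM, SD, n = 2 each) had adjusted p values of 0.9999 by edgeR. An SD of 2 libraries can fall below counting error. Of 5 tested squamous markers 2 had an unadjusted p under 0.05 by edgeR and 0 were called. The 7 squamous markers summed to 525 to 569 CPM per library. The 7 neuroendocrine markers, of which 6 were tested and 0 called, summed to 851 to 854 CPM. Such sums do not show how the reads divide among the genes. The epithelial marker EPCAM stood at 504 ± 6.09 CPM in Vehicle (SD, n = 2), while COL3A1, PECAM1 and PTPRC, which mark fibroblasts, endothelium and leukocytes, had no read in the 4 libraries. Other markers of these lists did have reads. Of 8 fibroblast and endothelial markers 3 had enough reads to be tested, VIM (described further on) among them, and 6 had a mean under 1 CPM. Of 5 immune markers 2 were tested and 4 had a mean under 1 CPM, the list summing to 1.5 to 2.5 CPM per library. Vehicle replicate 2 differed most from the other libraries, with a chi-square per gene of 2.28 to 2.95 against them, compared with 1.48 to 1.79 among the other 3.

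The 10 receptors held a small part of the summed receptor tyrosine kinase level of these cells, which a few other receptors dominated. Levels between genes were compared as RPKM (CPM per kilobase of exon), with exon bases counted on the main chromosome only. Of the summed RPKM of 58 receptor tyrosine kinases, the 10 receptors held 5.21% and 5.70% in the Vehicle libraries and 5.40% and 5.28% in the Hx1R8 libraries. FGFR1, a fibroblast growth factor receptor, held 32.5%, the pseudokinase PTK7 23.0%, the WNT receptor RYK 12.0%, the ephrin receptor EPHB4 8.25% and FGFR3 4.60%, as means over 4 libraries. FGFR1 stood at 120 to 125 RPKM in the 4 libraries, which was 10.8 to 12.4 times DDR1, 31.6 to 35.4 times ERBB2 and 244 to 303 times EGFR. Of the 10 receptors 8 had a mean of 1 CPM or more, as did 27 of the 48 other receptor tyrosine kinases. The median level was 0.363 RPKM over the 10 receptors and 0.189 RPKM over the 48 others.

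**Figure D1:**
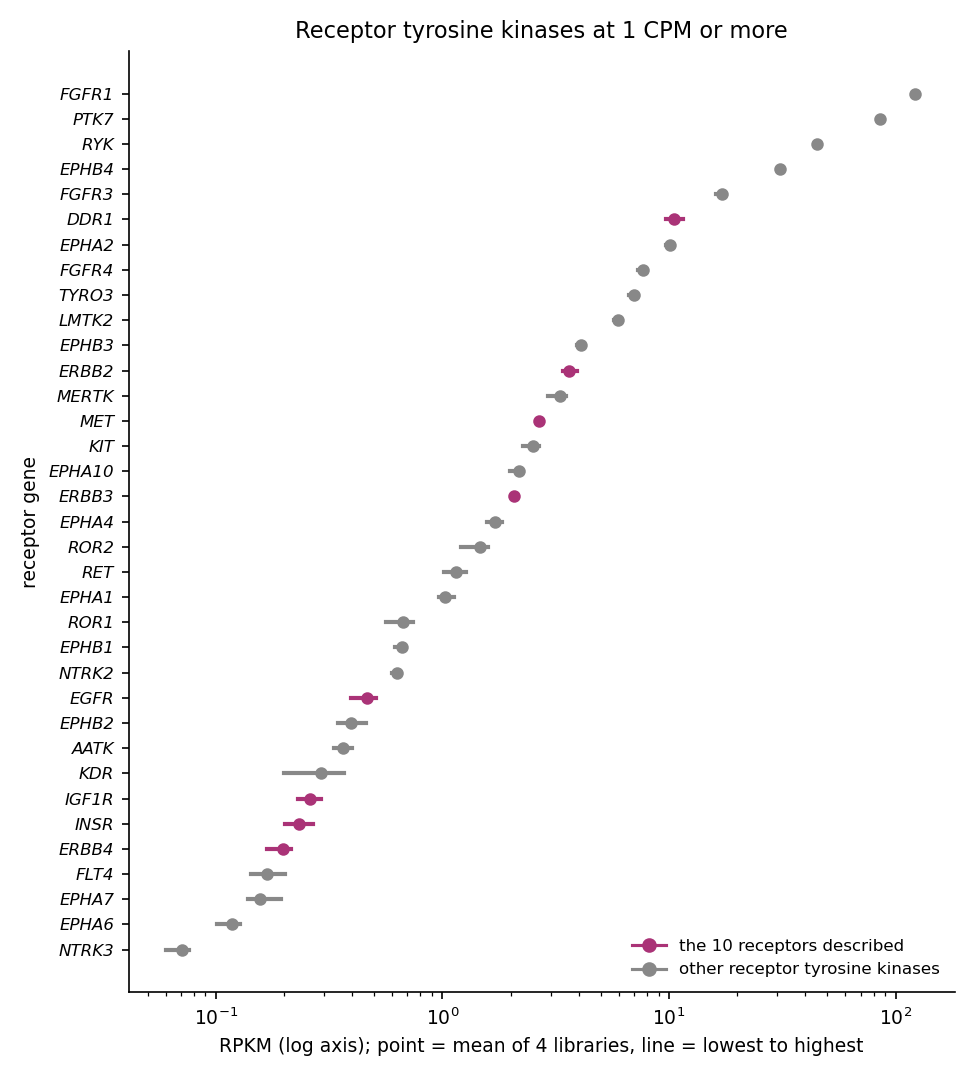
The 35 receptor tyrosine kinases with a mean of 1 CPM or more, by RPKM on a log axis. Points are means of the 4 libraries, and lines run from the lowest to the highest library. DDR1 is the highest of the receptors described, at rank 6 of 58, and EGFR stands at rank 25.

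DDR1, the collagen receptor, was the most abundant of the 10 receptors. It stood at 9.65 and 11.5 RPKM in Vehicle and at 10.5 and 10.2 RPKM in Hx1R8, 79.6% of all listed genes lying below it. DDR1 made up 52.1% of the summed RPKM of the 10 receptors as a mean over the libraries. DDR1 lies on chromosome 6 (30882613 to 30900156, plus strand, hg38) with 4576 exon bases there. The table lists it on 6 sequences, the others being alternate versions of the same region, and the listed length of 24587 bases sums all of them. How reads that fit several of these copies were counted is not stated in the sources used, so the level of DDR1 is uncertain in a way that the other 9 receptors, listed on 1 sequence each, are not.

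ERBB2, MET and ERBB3 formed a middle group. ERBB2 stood between 3.40 and 3.94 RPKM, MET between 2.59 and 2.76 RPKM, and ERBB3 between 2.01 and 2.12 RPKM over the 4 libraries. Their ranges did not touch, so the order DDR1, ERBB2, MET, ERBB3 held in every library. ERBB2 exceeded MET by 1.36 times and MET exceeded ERBB3 by 1.29 times in mean RPKM, steps much smaller than the 2.90 times from ERBB2 to DDR1. ERBB2 lies on chromosome 17 (39688084 to 39728662, plus strand) and shares 163 of its 5497 exon bases with MIEN1 on the opposite strand. MIEN1, at 585 and 594 reads in Vehicle and 566 and 641 in Hx1R8, had more reads than ERBB2, and reads on the shared bases cannot be assigned without a stated strand setting. MET (chromosome 7, 116672196 to 116798377) and ERBB3 (chromosome 12, 56080025 to 56103507) share no exon base with another listed gene.

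EGFR followed ERBB3 at a distance. It stood between 0.395 and 0.511 RPKM, which was 4.42 times below ERBB3 in mean RPKM and 6.98 to 9.32 times below ERBB2 in single libraries. EGFR lies on chromosome 7 (55019017 to 55211628, plus strand) with 11439 exon bases, of which 98.4% belong to no other listed gene, EGFR-AS1 on the opposite strand sharing 186 bases and having at most 2 reads in a library. IGF1R, INSR and ERBB4 followed at 0.230 to 0.290, 0.203 to 0.269 and 0.168 to 0.215 RPKM. The ranges of IGF1R and INSR overlapped, as did those of INSR and ERBB4, although IGF1R exceeded INSR and INSR exceeded ERBB4 in 4 of 4 libraries. Exon length enters this order, since these 3 genes have 12235, 9463 and 12097 exon bases, summed over all listed transcripts. IGF1R (chromosome 15, 98648539 to 98964530, plus strand) shares 1137 of these with IRAIN on the opposite strand, which had no read in any library. INSR lies on chromosome 19 (7112265 to 7294414, minus strand) and ERBB4 on chromosome 2 (211375717 to 212538802, minus strand). With exon bases shared with other genes left out, the order of the 10 receptors was the same.

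PDGFRA and AXL were the least abundant of the 10. PDGFRA (chromosome 4, 54229293 to 54298247, plus strand), typical of mesenchymal cells, had 14 and 12 reads in Vehicle and 10 and 22 in Hx1R8, or 0.0751 to 0.136 RPKM. AXL (chromosome 19, 41219223 to 41261767, plus strand), linked to mesenchymal states and drug resistance, had 3 and 4 reads in Vehicle and 3 and 2 in Hx1R8. AXL thus lay at or near the 3-count floor in every library and did not pass the filter on low counts, so no fold change is given for it. The mesenchymal filament gene VIM was at 514 ± 24.0 CPM in Vehicle (SD, n = 2), while DCN and LUM, which mark fibroblasts, had at most 1 read in a library.

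None of the 9 receptors that could be tested passed the test between Hx1R8 and Vehicle. By edgeR's quasi-likelihood test with Benjamini-Hochberg adjustment over 14482 genes, every receptor had an adjusted p of 0.9999, and the smallest unadjusted p was 0.0924, for ERBB2. In the same test 3 genes of 14482 were called, which is 0.0207%, a background against which 0 of 9 says little about the receptors. The median log2 fold change of the 9 receptors was -0.03 (3 above 0 and 6 below), beside -0.0018 over all tested genes. In 4 of the 9 both Hx1R8 libraries lay on one side of both Vehicle libraries (44.4%), beside 29.8% of all tested genes. Fewer cells that express a transcript and less of it per cell cannot be told apart in such bulk libraries.

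**Figure D2:**
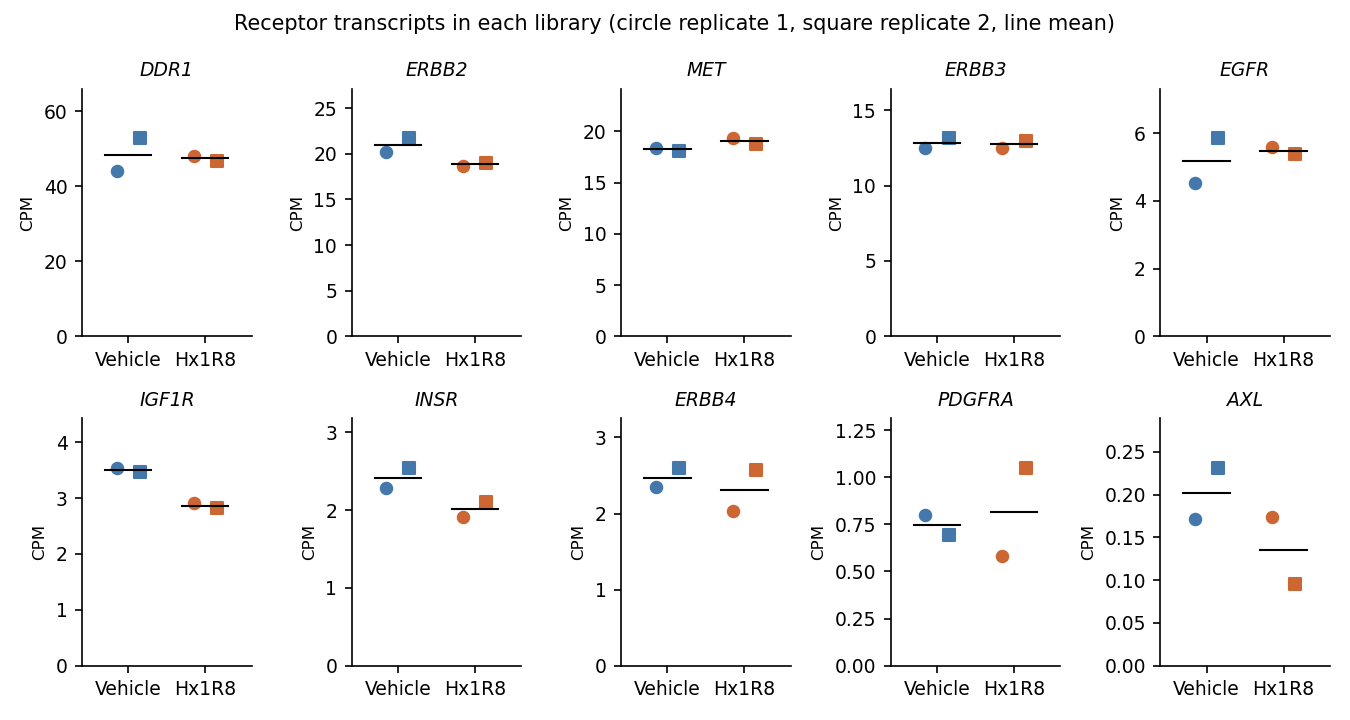
CPM of each receptor in each library, on axes that start at 0, with 1 panel per gene. Circles are replicate 1, squares are replicate 2 and black lines are group means. ERBB2, IGF1R and INSR have both Hx1R8 libraries below both Vehicle libraries, MET has both above, and the groups overlap for the other 6.

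Among the ERBB receptors, ERBB2 had the lowest unadjusted p. ERBB2 was at 20.2 and 21.7 CPM under Vehicle and at 18.7 and 19.0 CPM under Hx1R8, so both Hx1R8 libraries were the lower ones. Its fold change of 0.901 had a 95% interval from 0.798 to 1.02 (log2 -0.15, SE 0.09, adjusted p = 0.9999), which included no change. ERBB3 was at 12.5 and 13.1 CPM under Vehicle and at 12.5 and 13.0 CPM under Hx1R8. These groups overlapped almost fully, with a fold interval from 0.862 to 1.15. EGFR was at 4.52 and 5.84 CPM under Vehicle and at 5.58 and 5.39 CPM under Hx1R8, both Hx1R8 libraries lying between the Vehicle libraries. Its fold change was 1.06, with an interval from 0.847 to 1.32. ERBB4, a neuregulin receptor, was at 2.34 and 2.60 CPM under Vehicle and at 2.03 and 2.58 CPM under Hx1R8, and the groups overlapped. Its fold interval ran from 0.686 to 1.30.

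MET was the sole tested receptor with both Hx1R8 libraries above Vehicle. It was at 18.4 and 18.1 CPM under Vehicle and at 19.3 and 18.8 CPM under Hx1R8, a fold change of 1.04 with an interval from 0.921 to 1.18. No change lay well inside this interval, and the unadjusted p was 0.501. DDR1 was at 44.2 and 52.8 CPM under Vehicle and at 48.1 and 46.9 CPM under Hx1R8. Both Hx1R8 values lay between the Vehicle values, and its fold interval ran from 0.889 to 1.08.

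IGF1R and INSR had the lowest fold changes of the set, with wide intervals. IGF1R was at 3.54 and 3.47 CPM in Vehicle (62 and 60 reads) and at 2.90 and 2.82 CPM in Hx1R8 (50 and 59 reads). The Vehicle libraries were close to each other and so were the Hx1R8 libraries, which were the lower pair. The spread of IGF1R within groups was 0.141 times counting error, so this closeness does not measure how alike the replicates are. The fold change was 0.815 (log2 -0.30, SE 0.20, adjusted p = 0.9999), and the interval from 0.619 to 1.07 included no change. INSR was at 2.29 and 2.54 CPM in Vehicle (40 and 44 reads) and at 1.92 and 2.10 CPM in Hx1R8 (33 and 44 reads), again with Hx1R8 lower in both. Its fold change was 0.836, with an interval from 0.603 to 1.16. PDGFRA was at 0.800 and 0.694 CPM under Vehicle and at 0.581 and 1.05 CPM under Hx1R8, the Hx1R8 libraries lying on either side of Vehicle. Its interval, from 0.640 to 1.96, was the widest of the 9.

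**Figure D3:**
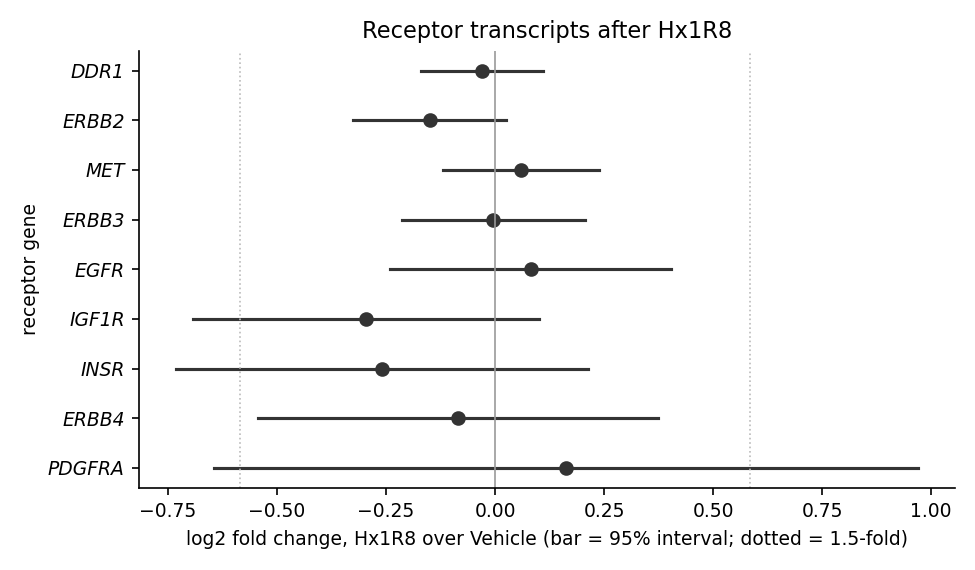
Log2 fold change of each tested receptor, Hx1R8 over Vehicle, with its 95% interval from the fitted model. Dotted lines mark 1.5-fold in either direction. All 9 intervals include 0, and those of IGF1R, INSR and PDGFRA reach beyond 1.5-fold.

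The intervals show what these libraries could resolve. For 6 receptors, EGFR, ERBB2, ERBB3, ERBB4, MET and DDR1, the 95% interval stayed inside a 1.5-fold change either way, and for all 9 inside a 2-fold change. Over all tested genes 81.4% were bounded within 1.5-fold and 93.1% within 2-fold. For IGF1R and INSR the interval reached past a 1.5-fold decrease, and for PDGFRA past 1.5-fold in both directions. For 8 of the tested receptors the spread over the 4 libraries was 0.401 to 1.27 times that of counting error alone, and for DDR1 it was 2.17 times. The excess of DDR1 came with the gap between the Vehicle libraries, its spread within groups being 2.61 times counting error. Vehicle replicate 2 was the highest library for 7 of the 10 receptors, all but MET, IGF1R and PDGFRA. Without Vehicle replicate 1 the log2 fold change of DDR1 was -0.15 and that of EGFR -0.09, and without Vehicle replicate 2 they were 0.11 and 0.28, with no call in either case.

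Receptor balance was compared over the libraries by 3 measures with an exact permutation test, which for 2 libraries against 2 cannot give a two-sided p below 0.333. ERBB2 and ERBB3 form a signalling pair in which ERBB2 supplies the active kinase, ERBB3 being the member with the asparagine codon shown above. The ERBB2 to ERBB3 ratio of RPKM was 1.83 and 1.86 in Vehicle and 1.69 and 1.65 in Hx1R8. Both Hx1R8 libraries were lower, by 0.14 on the log2 scale, at the smallest p that the exact test can give (0.333). The INSR to IGF1R ratio was 0.834 and 0.948 in Vehicle and 0.853 and 0.964 in Hx1R8, with overlapping groups (exact permutation p = 0.667). The 4 ERBB genes together held 32.7% and 31.4% of the summed RPKM of the 10 receptors in Vehicle and 30.5% and 31.6% in Hx1R8, which also overlapped (exact permutation p = 0.667). After Benjamini-Hochberg adjustment over the 3 exact tests each p was 0.667. The direction of the INSR to IGF1R difference turned without Vehicle replicate 1 (log2 -0.064) and without Hx1R8 replicate 2 (log2 -0.060).

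Transcripts for ERBB ligands were led by TGFA, a ligand of EGFR. TGFA was at 46.4 and 48.1 CPM under Vehicle and at 45.4 and 48.1 CPM under Hx1R8, the groups overlapping. Its RPKM was 21.3 to 26.9 times that of EGFR and 5.40 to 7.24 times that of HBEGF. HBEGF, BTC, AREG and EGF, which also bind EGFR, had mean levels of 1.73, 1.46, 1.25 and 0.740 RPKM, and the ERBB4 ligand NRG3 0.621 RPKM. NRG1, a ligand of ERBB3 and ERBB4, was low at 0.947 ± 0.277 CPM under Vehicle and at 0.921 ± 0.317 CPM under Hx1R8 (SD, n = 2 each). NRG2 had 0 to 11 reads and NRG4 2 to 4 reads per library, and EREG and EPGN had at most 1 read. Of the 11 ligands 7 were tested and 0 passed in either direction, with log2 fold changes from -0.20 for NRG3 (SE 0.18) to 0.05 for AREG (SE 0.29) and a median of -0.09.

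IGF1 transcripts far outnumbered those of its receptor per length. IGF1, the growth factor that binds IGF1R, was at 237 and 226 CPM under Vehicle and at 236 and 232 CPM under Hx1R8. Its RPKM was 102 to 128 times that of IGF1R over the libraries. The groups overlapped, and the fold change was 1.01, with an interval from 0.945 to 1.08. IGF2 had at most 1 read in a library and INS had none. IGFBP3, which binds and carries insulin-like growth factors, was at 811 ± 14.3 CPM under Vehicle and at 806 ± 5.34 CPM under Hx1R8 (SD, n = 2 each), and its RPKM was 10.1 to 10.6 times that of IGF1. IGFBP5, a binding protein of the same family, was at 691 ± 38.1 CPM under Vehicle and at 684 ± 20.8 CPM under Hx1R8 (SD, n = 2 each). Of 9 binding proteins and scavenger genes 8 were tested and 0 passed, IGFBP7 (log2 0.48, SE 0.30) and IGFBP6 (log2 0.54, SE 0.39) having the smallest unadjusted p values.

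**Figure D4:**
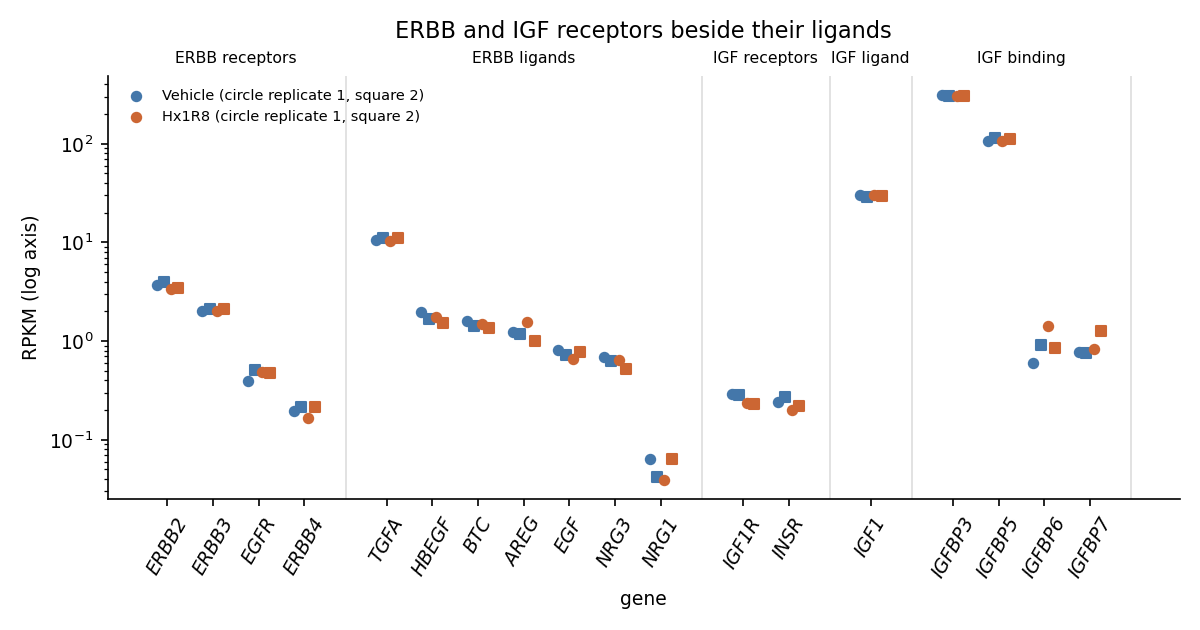
RPKM on a log axis of ERBB and IGF receptors beside those of their ligands and binding proteins that passed the filter and are named in the text. Blue is Vehicle, orange is Hx1R8, circles are replicate 1 and squares replicate 2. IGF1, IGFBP3 and IGFBP5 stand far above IGF1R and INSR in all 4 libraries.

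Transcripts for ligands of PDGFRA, DDR1 and AXL were detected, and that for the ligand of MET was not above the floor. HGF, the ligand of MET, had 1 read in Vehicle replicate 2 and none in the 3 other libraries. PDGFB, at 17.8 ± 0.025 CPM under Vehicle and at 16.7 ± 0.539 CPM under Hx1R8 (SD, n = 2 each), and PDGFC, at 13.1 ± 0.420 and 13.9 ± 2.04 CPM, were the most abundant of the platelet-derived growth factors per length. PDGFA (log2 -0.13, SE 0.15) and PDGFD (log2 0.03, SE 0.15) were at 6.20 ± 0.924 and 6.14 ± 1.49 CPM in Vehicle (SD, n = 2). The AXL ligand GAS6, and PROS1, which was listed with it, were at 1.09 ± 0.090 and 5.81 ± 0.196 CPM in Vehicle (SD, n = 2). None of the 7 tested members of this list passed, PROS1 being the highest at 0.14 (SE 0.16). Among 8 collagen genes whose products can engage DDR1, COL4A2 and COL5A1 led at 2.10 and 1.69 RPKM and 0 of 6 tested genes passed, COL4A2 being at -0.15 (SE 0.10) and COL4A1 at 0.17 (SE 0.21).

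Some genes whose proteins ready the ligands or stand beside the receptors in the membrane were abundant. ST14, a membrane protease that activates pro-HGF, was at 225 ± 0.581 CPM under Vehicle and at 223 ± 0.141 CPM under Hx1R8 (SD, n = 2 each). SPINT2, an inhibitor of such proteases, was at 217 ± 0.973 and 206 ± 2.85 CPM, with both Hx1R8 libraries lower (log2 -0.07, SE 0.05, adjusted p = 0.9999). Of 13 tested shedding and activation genes 0 passed, and RHBDF2, a cofactor of the sheddase ADAM17, was at -0.11 (SE 0.07). CD44, a hyaluronan receptor and partner of MET, stood at 1106 ± 2.61 CPM under Vehicle and at 1125 ± 5.19 CPM under Hx1R8 (SD, n = 2 each). Next to it per length was the integrin ITGB1, and 0 of 11 tested membrane partners passed, with the semaphorin receptor PLXNB1 at -0.11 (SE 0.06) and the tetraspanin CD9 at -0.09 (SE 0.06).

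No tested gene that carries the signal inward passed, which says little about them, since 0.0207% of all tested genes were called. Of 25 tested adaptor and PI3K genes 0 passed, AKT1 and INPPL1 leading in level at 72.9 and 70.8 RPKM, and the adaptor SHC2 was at 0.37 (log2, SE 0.21). Of 17 RAS and MAPK genes 0 passed and all 17 had intervals within 1.5-fold of no change, beside 81.4% of all tested genes. Interval width depends on read number, and 0 of the 17 had a mean under 1 CPM, so these shares are not like for like. MAP2K2 and the phosphatase PTPN11 led this list at 110 and 72.8 RPKM, while KSR1 was at -0.13 (SE 0.08) and NRAS at 0.07 (SE 0.05).

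No tested brake on the receptors, and no gene that follows their signal, passed. With 0.0207% of all tested genes called, this says little about these genes. GRB10, an adaptor that dampens IGF1R and INSR signalling, had the smallest unadjusted p of all genes listed here (0.0188), at 96.0 and 104 CPM under Vehicle and at 106 and 112 CPM under Hx1R8. Both Hx1R8 libraries were above Vehicle, by a fold of 1.10 with an interval from 1.02 to 1.18, and the adjusted p was 0.9999. Of 28 tested brakes 0 passed, among them SOCS4 (log2 0.09, SE 0.06). PTPRF and LRIG1, a receptor phosphatase and a protein that lowers ERBB receptors, led in level at 60.7 and 39.0 RPKM. Of 13 genes that report MAPK output 0 passed, 6 being above 0 and 7 below. PHLDA1 and CCND1, the highest of these, had fold intervals from 0.951 to 1.08 and from 0.946 to 1.07. DUSP5, a phosphatase induced by MAPK signalling, had 34 and 15 reads in Vehicle and 43 and 40 in Hx1R8 (log2 0.63, SE 0.29, adjusted p = 0.9999), and the AP-1 gene FOSL1 was at -0.61 (SE 0.40). Without Vehicle replicate 1 the log2 fold change of DUSP5 was 1.32 (adjusted p = 0.0833 by edgeR), and without Vehicle replicate 2 it was 0.16 (adjusted p = 0.968). Of 15 tested FOXO factors and genes that AKT restrains through them 0 passed, with FOXO4 at 0.37 (SE 0.19), FOXO3 at -0.11 (SE 0.07), TXNIP at 44.3 RPKM and CDKN1B at 14.1 RPKM.

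Other receptor tyrosine kinases and the chromosomal neighbours of ERBB2 held no called gene, beside 0.0207% of all tested genes called. Of 33 tested other receptors 0 passed, with a median log2 fold change of 0.03. FGFR2, at 9 and 9 reads in Vehicle and 21 and 16 in Hx1R8, had the smallest unadjusted p (log2 0.90, SE 0.43, adjusted p = 0.9999), and the endothelial receptor KDR followed (log2 -0.46, SE 0.27). FGFR1, the most abundant, had a fold interval from 0.927 to 1.05. Of 12 genes next to ERBB2 7 were tested and 0 passed. MIEN1 (log2 -0.10, SE 0.07), which overlaps ERBB2, and ORMDL3 were the most abundant per length at 21.6 and 17.5 RPKM, while GSDMB was at 0.18 (SE 0.23).

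**Figure D5:**
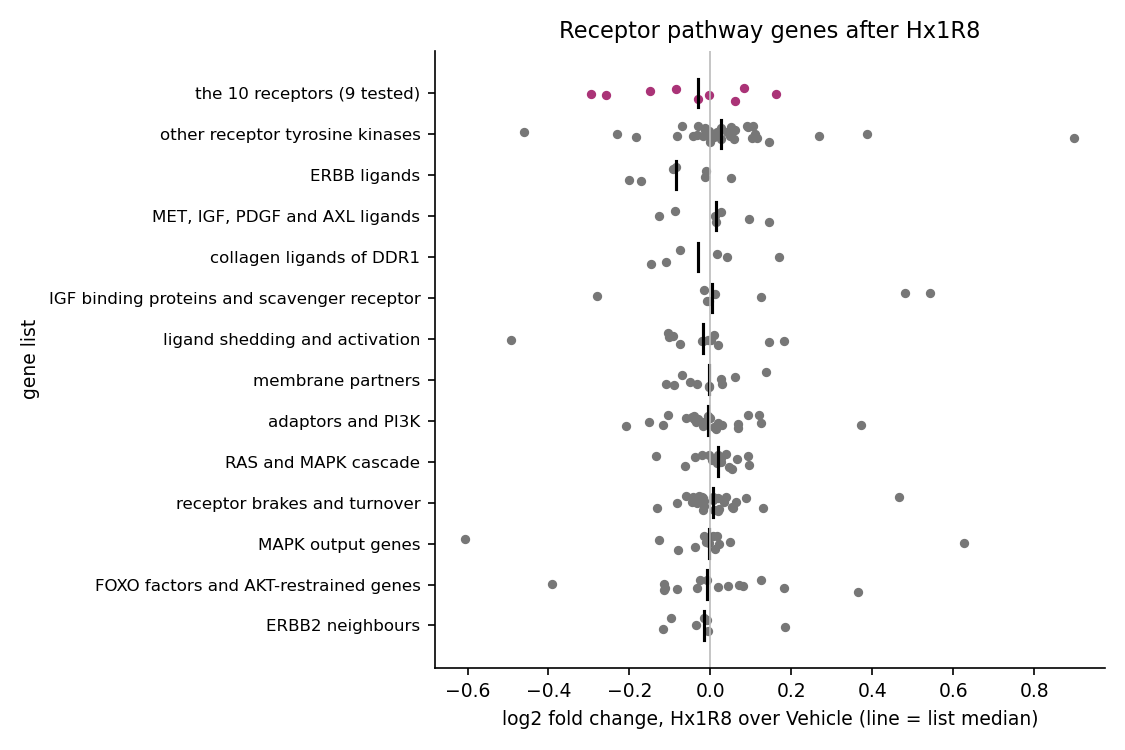
Log2 fold change, Hx1R8 over Vehicle, of every tested gene of the 14 lists, 1 point per gene, with the median of each list as a black line. Medians lie between -0.09 for the ERBB ligands and 0.03 for the other receptor tyrosine kinases, and no gene shown passed the adjusted threshold.

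Over the 13 lists other than the receptors themselves, 184 different genes were tested, of which 0 passed in either direction. Over all tested genes 3 of 14482 (0.0207%) passed, so the 0 says little about the lists. The log2 fold change lay above 0 in 90 of the 184 and below 0 in 94. Of these 184, 3 had an unadjusted p under 0.05 (1.63%), beside 3.39% of all tested genes. In 54 of them (29.3%) the groups did not overlap, close to the 29.8% of all tested genes. In 151 of the 184 the 95% interval excluded a change of 1.5-fold either way, a share close to the 81.4% of all tested genes.

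For DDR1 the 3 listed genes with the closest pattern over the 4 libraries were PDPK1, KSR2 and CDCP1. Likeness was the distance between log2 CPM values centred on each gene's mean, which was 0.045, 0.0475 and 0.0499 among 192 genes compared. PDPK1 ran at 103 and 119 CPM under Vehicle and at 108 and 109 CPM under Hx1R8, highest in Vehicle replicate 2 as DDR1 was. With 4 libraries this is a description only.

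The promoter windows were searched for the core letters of SOX factor binding, since the series is about SOX2. The windows span 250 bases before to 50 after each gene start in RefSeq (GRCh38.p14) and hold the 9 receptors other than ERBB3 in 19 windows. ATTGTT, or its reverse complement AACAAT, was found in 2 of the 19 windows (10.5%) and in 10.1% of all 35116 windows. Counted by window, the receptors thus had it about as often as promoters in general. Of the 19 windows 8 belong to DDR1. Counted by receptor, 2 of 9 (22.2%) had a match, a share with no like figure over all genes here. The 60 bases around the ERBB4 match are shown on the strand of the gene, with the match in capitals, as an example of where it lies.
ERBB4, chr2:212538848-212538907, minus strand: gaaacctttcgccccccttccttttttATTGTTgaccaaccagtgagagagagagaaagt
The ERBB4 match begins 78 bases before the gene start. The DDR1 match, in 1 of 8 windows of that gene, begins 122 bases before a start, inside the listed span of DDR1. Neither gene passed the test between the groups, and a match of letters does not show that a factor binds there.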

How the data were processed

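The authors deposited raw read counts per gene, 1 column per library. STAR 2.7.9 and the build hg38 appear in the submitters' processing notes; no source used here names the counting tool, its annotation or the strand setting. Coordinates and exon bases come from the table, per the file headers. 1 gene broken over 2 lines was left out, leaving 28277 genes; rows naming no gene numbered 0.

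Group differences were fitted on these counts by edgeR 4.0.16 under R 4.3.3 (quasi-likelihood test, TMM factors of 0.998 to 1.00, filterByExpr, group as the only term, two-sided, Benjamini-Hochberg over 14482 genes, threshold 0.05). CPM used TMM-scaled library sizes, and RPKM divided CPM by exon kilobases on the main chromosome. Standard errors and 95% intervals came from the fitted model (2 residual and 36.9 prior degrees of freedom). Alternatives were other scalings and filters, DESeq2 1.42.0, limma-voom (limma 3.58.1), robust dispersions, a replicate block and leaving out each library.

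The receptors and gene lists were chosen with earlier results of these data known. Named were all receptors, all listed ligands except collagens and, per other list, the 2 genes highest in RPKM (5 for receptor kinases) and the 2 with the smallest unadjusted p. Genes sharing exon bases with a receptor, the 3 genes most like DDR1 in pattern and members of a fixed marker list were also named. Coding sequences were read from GENCODE v29 transcripts (longest open reading frame) and promoters from RefSeq GRCh38.p14. 1 gene that this rule names is not reported here.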

Additional observations from a re-analysis of the deposited data

How the results depend on the processing

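No receptor was called under any of the 13 alternatives: 9 that kept all 4 libraries and 4 that left out 1 library, where the lone sample was assumed to vary like the other group. Of 116 recomputed fold changes of the 9 tested receptors 7 changed sign, none with a call, and the cause was not tested. With all libraries kept, the 1 sign change was ERBB3 without a low-count filter (0.000158). ERBB2, MET, IGF1R and INSR kept their sign under all 13.

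With 1 library left out, log2 fold changes that changed sign ran from -0.041 to 0.036 for ERBB3, -0.093 to 0.280 for EGFR, -0.281 to 0.061 for ERBB4, -0.153 to 0.106 for DDR1 and -0.360 to 0.488 for PDGFRA. ERBB3 turned without Vehicle replicate 2 or Hx1R8 replicate 1, ERBB4 without Hx1R8 replicate 1 and PDGFRA without Hx1R8 replicate 2. The same held for TGFA (-0.058 to 0.028), EGF (-0.224 to 0.024), AREG (-0.266 to 0.357), NRG1 (-0.441 to 0.323), IGF1 (-0.0168 to 0.0475), PDGFA (-0.269 to 0.034), PDGFC (-0.073 to 0.228), PDGFD (-0.199 to 0.299), GAS6 (-0.071 to 0.099), PROS1 (-0.105 to 0.390), KSR1 (-0.259 to 0.0017) and GSDMB (-0.065 to 0.486). The median of the receptors ran from -0.164 (without Hx1R8 replicate 2) to 0.036 (without Vehicle replicate 2), and the log2 difference of the INSR to IGF1R ratio from -0.064 to 0.121.

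Over all genes, 2 to 41 were higher and 1 to 38 lower with 1 library left out, the most without Vehicle replicate 1 (41 and 38) and then Vehicle replicate 2 (13 and 18), and DESeq2 and robust dispersions each gave 1 higher, against 2 higher and 1 lower in the main result. With the replicate block the receptors' median was -0.030 and 0 were called. Same-numbered deviations correlated at 0.03 over all tested genes. Counting error lowers such a value, so it cannot settle whether same-numbered libraries shared a culture or batch, which the labels do not state. IGF1R, INSR and ERBB4 rest on 33 to 62 reads per library, with standard errors of 0.20 to 0.23 on the log2 scale, and PDGFRA on 10 to 22 reads, with 0.40.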
